A study of Mus musculus with 17 samples.

Results

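Interferon-stimulated genes are genes whose transcription is switched on by interferons, and 39 of them were followed here in the livers of mice given a high-fat diet, an ethanol binge, both or neither. They were taken by gene symbol and were measured by 60 of the 41174 non-control probes on the array. Of the 39 genes, 38 passed the filter on low signal and were tested with 56 probes, among 19342 genes and 34650 probes tested in all. Oas1g was not well above background on any of the 17 arrays. Total liver RNA of 17 male C57BL/6N mice (the strain given by the sample labels; the study's methods name C57BL/6J) was measured, 1 array per mouse. The chow group (n = 4) was kept on chow for 3 months and received maltose by gavage. The 1B group (n = 4) had the same diet and 1 gavage of ethanol at 5 g/kg. The HFD group (n = 4) was fed a high-fat diet for 3 months and received maltose, and the HFD+1B group (n = 5) was fed that diet and received the same single dose of ethanol. All mice were killed hours after the gavage, so each group was seen at 1 time after 1 dose, and the mice carried no engineered allele. The study asked how diet and binge ethanol act together in steatohepatitis, and the 4 groups allow ethanol to be compared with maltose on each diet, and the high-fat diet with chow under each gavage.

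Type I interferons bind a receptor that activates JAK kinases, and a complex that holds Stat2 and Irf9 then binds the interferon-stimulated response element (ISRE) in promoters. Genes induced by interferon-γ often carry another element, the gamma-activated site (GAS). The induced genes include sensors of viral RNA (Ddx58, Ifih1, Dhx58), effectors that block viral RNA or its translation (the Ifit and Oas families, Mx1, Rsad2), the ubiquitin-like protein Isg15 with its protease Usp18, GTPases that act on intracellular pathogens (the Gbp and Irg families), and the peptide transporter Tap1. Hepatocytes, Kupffer cells and endothelial cells can all respond to interferon, and whole-liver RNA does not separate them. A lower value can therefore mean fewer cells of a type or less RNA per cell, and these cannot be told apart here.

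The promoters of the members were searched for both elements. RefSeq promoters (GRCm38.p6, 250 bases before to 50 after the start) were matched for 30 of the 39 genes, and the letters GAAA, any 2 bases and GAAA again (the ISRE core, searched on both strands) were found in 17 of them (56.7%), against 3.99% of all 27025 genes with a promoter. The letters TTCNNNGAA (GAS, the same on both strands, where N is any base) were in 8 of the 30 genes (26.7%), against 9.55% of all genes. Of the 11 members that were called in at least 1 comparison below, 10 had a promoter and 6 of these held the ISRE core. The stretches around those matches are shown, since these genes carry the differences described below. Capitals mark the ISRE core or its reverse complement, and overlapping matches run together.
Ifit3 (chr19:34583333-34583456, plus strand): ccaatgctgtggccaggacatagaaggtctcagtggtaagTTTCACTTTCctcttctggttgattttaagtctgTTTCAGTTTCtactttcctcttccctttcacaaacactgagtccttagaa
Ifit1 (chr19:34640745-34640853, plus strand): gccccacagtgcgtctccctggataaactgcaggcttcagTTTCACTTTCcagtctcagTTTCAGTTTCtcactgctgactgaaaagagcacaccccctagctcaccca
Isg15 (chr4:156200835-156200936, minus strand): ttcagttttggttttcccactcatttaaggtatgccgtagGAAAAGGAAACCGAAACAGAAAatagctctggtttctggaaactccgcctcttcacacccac
Gbp3 (chr3:142559959-142560054, plus strand): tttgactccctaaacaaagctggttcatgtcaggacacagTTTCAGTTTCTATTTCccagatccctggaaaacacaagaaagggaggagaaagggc
Irgm1 (chr11:48871395-48871490, minus strand): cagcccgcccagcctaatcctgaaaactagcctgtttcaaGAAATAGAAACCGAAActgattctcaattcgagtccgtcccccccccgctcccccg
Ifih1 (chr2:62646206-62646263, minus strand): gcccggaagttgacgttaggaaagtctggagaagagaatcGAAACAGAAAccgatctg
In Ifit3 the matches began 156 and 122 bases before the start, and in Ifit1 104 and 85 bases before it. In Isg15, 3 overlapping matches began 78, 72 and 66 bases before the start. In Gbp3 they began 45 and 39 bases before the start, and in Irgm1 30 and 24 bases before it. The single match of Ifih1 began 32 bases after the start. The called members Oasl1, Oasl2, Tap1 and Xaf1 held no ISRE core in this window. Among the 27 tested members called in no comparison, 10 of the 19 with a promoter held the ISRE core, so the letters were present in both sets. The GAS letters were in 0 of the 10 called members with a promoter and in 8 of those 19. No promoter was printed for Dhx58, Iigp1, Mx1, Mx2, Oas2, Parp14, Parp9, Usp18 and Zbp1.

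Values below are log2 ratios of the liver of 1 mouse (Cy5) to a common reference RNA (Cy3), and differences are differences of group means of these, so 1 unit is a 2-fold change. A gene was called when the adjusted p of limma, Benjamini-Hochberg over all 34650 probes, was 0.05 or less. Each gene is given by its brightest probe. All 9 measured hepatocyte markers were well above background on all 17 arrays. HFD arrays had a median raw Cy5 signal of 63 to 98 intensity units, chow arrays 99 to 138, 1B arrays 69 to 134, and HFD+1B arrays 90 to 158. The HFD arrays stood apart in 3 ribosomal RNA probes, whose mean log2 ratio was -3.81 to -2.15 in HFD mice, while chow mice lay at 0.22 to 0.59, 1B mice at -1.16 to 0.12, and HFD+1B mice at -1.03 to 1.12. Every comparison with HFD mice carries that difference, and its part in the results was not tested. The arrays lay on 5 slides, each holding mice of 3 or 4 groups, and within-slide differences are given below.

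**Figure D1:**
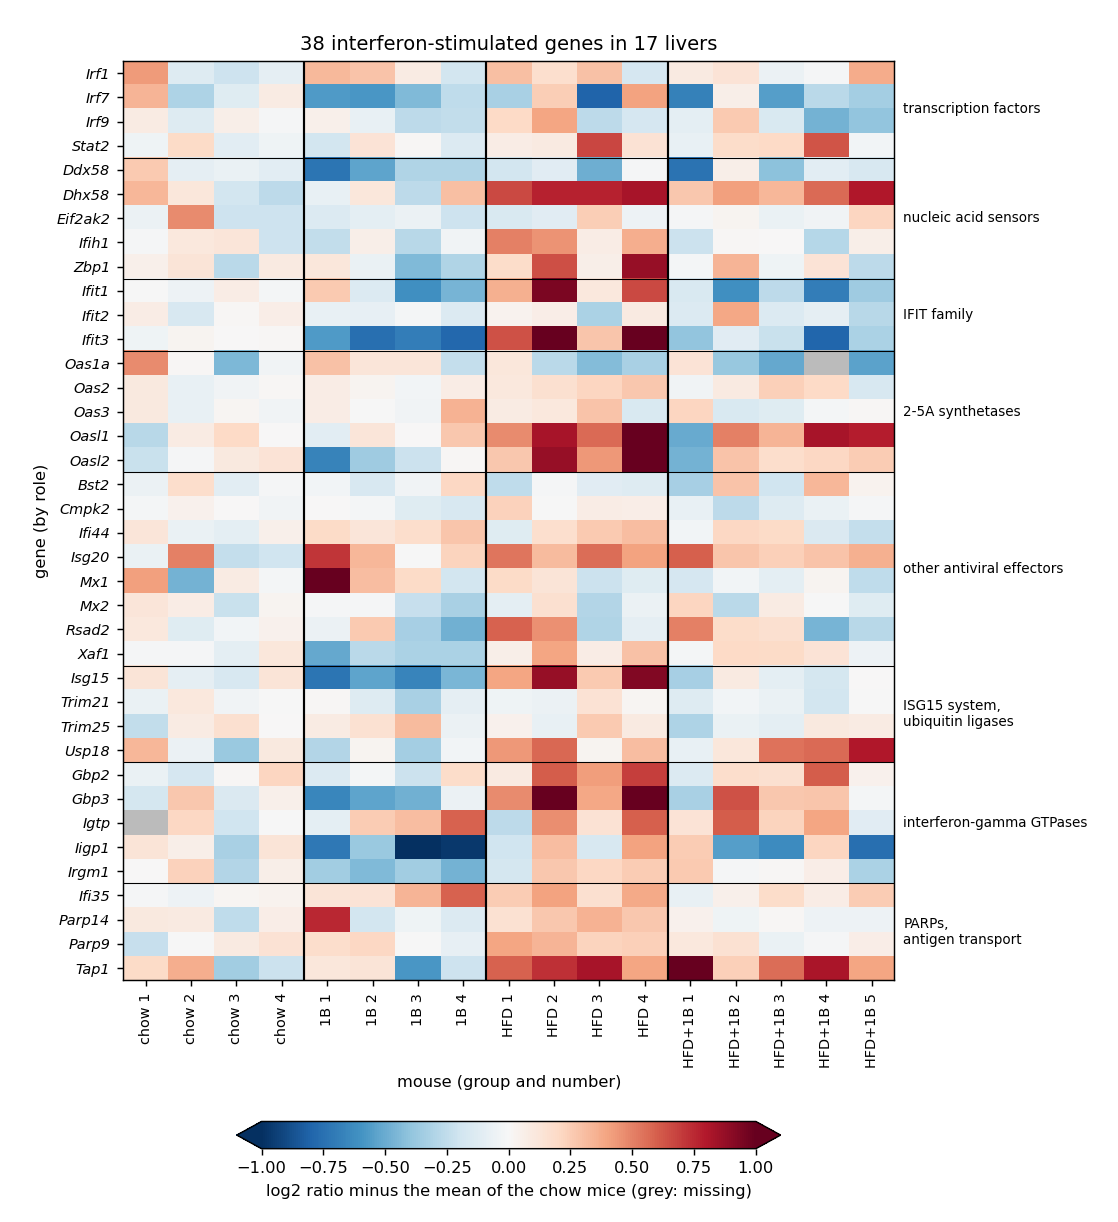
Log2 ratio of each of the 38 tested interferon-stimulated genes (rows, grouped by role) in each of the 17 mice (columns, grouped by chow, 1B, HFD, and HFD+1B), minus the mean of that gene in chow mice. The color scale runs from -1 to 1, and gray marks a missing value. Ifit3 and Isg15 are low in all 4 1B mice and high in all 4 HFD mice.

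Single ethanol gavage on chow lowered Ifit3 and Isg15. Ifit3 is a partner of Ifit1 in binding viral RNA, and Isg15 is a ubiquitin-like modifier and one of the most strongly interferon-induced proteins. Ifit3 had log2 ratios of 0.09, 0.16, 0.13 and 0.15 in chow mice and -0.43, -0.62, -0.56 and -0.66 in 1B mice. The 2 groups did not overlap, and the difference was -0.70 (SE 0.15, adjusted p = 0.0144), a 1.62-fold lower level. Isg15 had log2 ratios of -0.03, -0.25, -0.32 and -0.03 in chow mice and -0.89, -0.69, -0.82 and -0.62 in 1B mice. Every 1B mouse lay below every chow mouse, and the difference was -0.59 (SE 0.14, adjusted p = 0.0213), 1.51-fold lower. On the 3 slides that held both groups the difference was -0.52, -0.78 and -0.69 for Ifit3, and -0.86, -0.44 and -0.50 for Isg15.

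These 2 genes were the only members called, 2 of 38 (5.26%) against 2.05% of all genes called lower. None was called higher (2.09% of all genes were). By unadjusted p, 1 member was higher and 7 were lower, and by the Tukey test at its own threshold 1 (Ifi35) was higher and 5 were lower. The share of all genes called by these rules, under other settings or with a mouse left out is not given, here or below. Such counts therefore do not show whether the members differ from other genes. Groups did not overlap for 7 members (18.4%, against 12% of all genes), namely Ddx58, Ifi35, Ifit3, Iigp1, Irgm1, Isg15 and Xaf1. Iigp1, an interferon-γ-induced GTPase, was not called at a difference of -0.84 (adjusted p = 0.0595), with log2 ratios of 0.36, 0.29, -0.10 and 0.36 in chow and -0.49, -0.14, -1.07 and -0.74 in 1B mice. The median difference over the 38 members was -0.10, against 0.01 over all genes, and 24 of 38 were below 0 (48% of all genes were). With the slide as a block 4 members were called (Ddx58, Ifit3, Iigp1 and Isg15), and with the replicate number as a block also 4 (Ifit3, Iigp1, Isg15 and Xaf1). Without chow replicate 1, chow replicate 4, 1B replicate 1 or 1B replicate 3, only Ifit3 was called. No member was called with the Cy5 signal alone or with the Tukey test of the methods after Benjamini-Hochberg adjustment.

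On the high-fat diet, ethanol lowered Ifit3, Ifit1, Isg15, Gbp3, Oasl2 and Ifih1. Ifit3 had log2 ratios of 0.77, 1.15, 0.41 and 1.18 in HFD mice and -0.27, 0.01, -0.09, -0.66 and -0.18 in HFD+1B mice. Its difference, -1.12 (SE 0.15, adjusted p = 1.1e-04), was a 2.17-fold lower level. With the main processing it was the only member difference of 2-fold or more in any comparison. Other settings that kept all mice gave differences in HFD+1B vs HFD mice of -1.66 to -0.74 for Ifit1. They gave -1.36 to -0.49 for Gbp3 and -1.01 to -0.42 for Oasl2, so 2-fold was passed in some settings. Ifit1, which sequesters viral RNA lacking the host's cap methylation, had log2 ratios of 0.64, 1.22, 0.39 and 0.94 in HFD mice and 0.13, -0.33, 0.02, -0.41 and -0.07 in HFD+1B mice. It fell by 0.93 (SE 0.18, adjusted p = 0.00163, 1.91-fold), and the groups did not overlap. Isg15 had log2 ratios of 0.23, 0.72, 0.11 and 0.76 in HFD mice and -0.49, -0.07, -0.26, -0.33 and -0.15 in HFD+1B mice. Again no HFD+1B mouse reached an HFD mouse, and the difference was -0.71 (SE 0.13, adjusted p = 0.00152, 1.64-fold).

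The other 3 called members showed smaller differences. Gbp3, a guanylate-binding protein, had log2 ratios of 0.09, 0.68, 0.01 and 1.09 in HFD mice and -0.70, 0.26, -0.11, -0.10 and -0.40 in HFD+1B mice, a difference of -0.68 (SE 0.21, adjusted p = 0.0345) with overlapping groups. Oasl2, a member of the 2′-5′ oligoadenylate synthetase family, had log2 ratios of -0.05, 0.54, 0.11 and 0.74 in HFD mice and -0.80, -0.04, -0.15, -0.12 and -0.07 in HFD+1B mice, a difference of -0.57 (SE 0.18, adjusted p = 0.0357). The lowest HFD mouse lay just below the highest HFD+1B mouse. Ifih1, the RNA sensor MDA5, had log2 ratios of 0.56, 0.50, 0.13 and 0.42 in HFD mice and -0.16, 0.06, 0.06, -0.23 and 0.11 in HFD+1B mice. It fell by 0.43 (SE 0.11, adjusted p = 0.0124), and the groups did not overlap. A dimmer probe of Ifih1 was not called (-0.19, adjusted p = 0.565), and its groups overlapped. These 3 genes were not called with median centring or with the Cy5 signal alone, and Isg15 was also not called with the Cy5 signal alone. Gbp3 and Oasl2 were also not called without HFD replicate 2, HFD replicate 4, HFD+1B replicate 1 or HFD+1B replicate 4, nor Gbp3 without HFD+1B replicate 5.

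Together 6 of 38 members (15.8%) were called lower, against 8.4% of all genes, and none higher, against 11% of all genes (0 members were higher and 9 were lower by unadjusted p). All 6 were lower on each of the 4 slides that held both groups, by 0.50 to 1.84 for Ifit3. The groups did not overlap for 7 members (18.4%, against 15.3% of all genes), which adds Cmpk2, Parp14 and Parp9 to Ifih1, Ifit1, Ifit3 and Isg15. The median difference of the members was -0.14 (0.01 over all genes) and 32 of 38 were below 0 (48.7% of all genes were), but with median centring of each array in place of loess the median turned to 0.02, against 0.09 over all genes, and 15 of 38 were below 0. All 4 pairs of HFD and HFD+1B mice that share a replicate number deviated together (correlations of 0.15 to 0.47), 3 of them being on the same slide, and with that number as a block 7 members were called lower, Oasl1 being added.

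Markers of several cell types moved in the same comparison. Of 6 tested markers of sinusoidal endothelium, Kdr, Clec4g and Stab2 were called lower (-1.23, -0.80 and -0.49) and Lyve1 higher (1.82), with a median of -0.42. Of 9 hepatocyte markers, Tat and Apob were called higher (2.79 and 2.28) and Cyp2e1 lower (-0.81), with a median of -0.14. None of the 9 macrophage markers was called (-0.45 to 0.52), and their mean relative to chow was 0.30 to 0.51 in mice without ethanol and 0.26 to 0.72 in mice with it. Among 10 neutrophil markers 2 were called higher and 1 lower, and among 9 T and NK cell markers 1 higher. Of all genes, 11% were called higher and 8.4% lower in this comparison. Ribosomal RNA probes were higher in HFD+1B than in HFD mice for all 3. The part of these shifts in the fall of the interferon-stimulated genes was not tested.

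**Figure D2:**
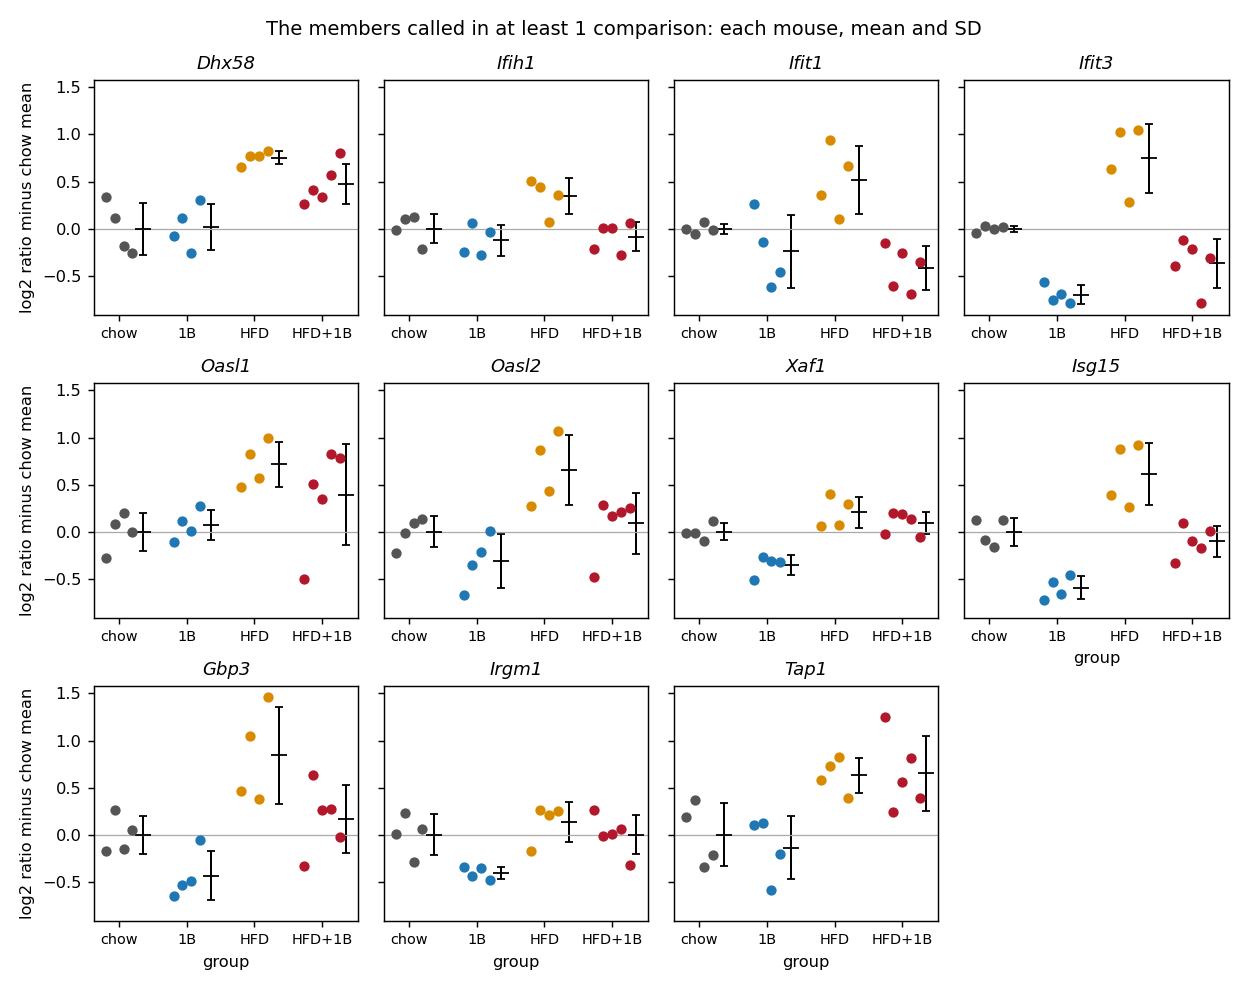
Log2 ratio minus the mean of that gene in chow mice (vertical axis) for the 11 members called in at least 1 comparison. Each gene has 1 panel, with each mouse of the 4 groups and the mean and SD of each group. For Ifit3 and Isg15 the group mean is lowest in 1B and highest in HFD mice, and every HFD+1B mouse lies below every HFD mouse.

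In mice given maltose, the high-fat diet raised Dhx58, Ifit3, Isg15, Gbp3, Oasl1 and Oasl2. Dhx58, the RNA sensor LGP2, had log2 ratios of 0.01, -0.21, -0.51 and -0.58 in chow mice and 0.34, 0.45, 0.44 and 0.50 in HFD mice, a difference of 0.75 (SE 0.14, adjusted p = 0.00345, 1.69-fold). Ifit3 rose by 0.75 (SE 0.15, adjusted p = 0.00553), from the chow and to the HFD values given above. Isg15 rose by 0.61 (SE 0.14, adjusted p = 0.0101). In all 3 genes every HFD mouse lay above every chow mouse.

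Gbp3 had log2 ratios of -0.55, -0.11, -0.52 and -0.33 in chow mice, and its difference from the HFD mice was 0.84 (SE 0.22, adjusted p = 0.0238, 1.79-fold). Oasl1, which limits translation of the interferon regulator Irf7, had log2 ratios of -0.77, -0.41, -0.29 and -0.49 in chow mice and -0.02, 0.33, 0.08 and 0.51 in HFD mice. It rose by 0.71 (SE 0.22, adjusted p = 0.0444). Oasl2, at -0.55, -0.33, -0.23 and -0.19 in chow mice, rose by 0.66 (SE 0.19, adjusted p = 0.0353). These groups did not overlap either, and the differences of all 6 genes were above 0 on each of the 3 slides with both groups.

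In this comparison 6 of 38 members (15.8%) were called higher, against 4.5% of all genes, and none lower, against 6.48% (14 were higher and 0 were lower by unadjusted p). Groups did not overlap for 12 members (31.6%, against 19.4% of all genes), adding Ifi35, Ifit1, Oas2, Parp14, Parp9 and Tap1. For Parp14 this held at the brightest probe (0.26), but its dimmer probes lay below 0. A dimmer Parp14 probe at -0.21 also showed no overlap, with HFD mice below chow mice. For another at -0.23 the groups overlapped, and no Parp14 probe was called in this comparison. The median difference of the members was 0.20 and of all genes 0.00, with 30 of 38 members above 0 (50.1% of all genes were). Without chow replicate 1, 3 or 4, or HFD replicate 2 or 4, the calls numbered 3 (Dhx58, Ifit3 and Isg15), and none was called with the Tukey test after Benjamini-Hochberg adjustment. Of 28 alternatives, mice left out included, Oasl1 lost its call in 16, Oasl2 in 8, Isg15 in 3, and Ifit3 and Dhx58 in 1 each. Gbp3 lost it in 8 of 27. Of 9 tested macrophage markers 3 were called higher in HFD than in chow mice, Cd68, Lyz2 and Emr1 at 1.28, 0.97 and 0.67, and none lower. Over the 9 the differences ran from -0.32 to 1.28 with a median of 0.25, and their mean was -0.26 to 0.34 in chow and 0.30 to 0.51 in HFD mice. Of 9 hepatocyte markers 3 were called lower, Apob, Tat and Serpina1c at -2.77, -1.36 and -0.80, and none higher, with differences from -2.77 to 0.51 and a median of -0.35. Of 6 endothelial markers Lyve1 and Stab2 were called higher (1.37 and 0.59), of 10 neutrophil markers S100a8 (0.55), and of 9 T and NK cell markers Prf1 lower (-0.59). The part of these shifts, and of the ribosomal RNA difference, in the rise of the interferon-stimulated genes was not tested.

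Under ethanol, the high-fat diet raised Tap1, Isg15, Xaf1, Irgm1 and Dhx58. Tap1, which carries peptides into the endoplasmic reticulum for antigen presentation, had log2 ratios of -0.21, -0.19, -0.90 and -0.53 in 1B mice and 0.93, -0.08, 0.24, 0.49 and 0.07 in HFD+1B mice, a difference of 0.79 (SE 0.20, adjusted p = 0.0159, 1.73-fold). Isg15 rose by 0.49 (SE 0.13, adjusted p = 0.0234). Xaf1, a pro-apoptotic antagonist of XIAP, had log2 ratios of -0.60, -0.36, -0.40 and -0.41 in 1B mice and -0.11, 0.11, 0.10, 0.05 and -0.14 in HFD+1B mice.

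Xaf1 rose by 0.45 (SE 0.09, adjusted p = 0.00492). Irgm1, a GTPase that regulates the other immunity-related GTPases, had log2 ratios of -0.44, -0.53, -0.44 and -0.57 in 1B mice and 0.17, -0.11, -0.08, -0.03 and -0.41 in HFD+1B mice. It rose by 0.40 (SE 0.12, adjusted p = 0.0447). Dhx58, at -0.40, -0.21, -0.58 and -0.02 in 1B mice and -0.06, 0.09, 0.01, 0.25 and 0.48 in HFD+1B mice, rose by 0.45 (SE 0.14, adjusted p = 0.0422). Only for Dhx58 among these 5 did the groups overlap.

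These 5 of 38 members (13.2%) compare with 6.28% of all genes called higher, and no member was called lower, against 5.15% (10 were higher and 1 was lower by unadjusted p). Groups did not overlap for 4 members (10.5%, against 11.5% of all genes). All 5 called genes were higher on each of the 4 slides with both groups. The count depended on single mice. It fell to 1 (Xaf1) without 1B replicate 3, to 2 without 1B replicate 1, and to 3 without 1B replicate 2, HFD replicate 2, HFD replicate 4, HFD+1B replicate 2 or HFD+1B replicate 4. It rose to 8 without HFD+1B replicate 1. With the Cy5 signal alone, no member was called. Of 28 alternatives, mice left out included, Irgm1 lost its call in 19, Dhx58 in 11, Isg15 in 5, Tap1 in 3 and Xaf1 in 1. Of 9 macrophage markers Cd68 was called higher in this comparison (1.53), of 9 hepatocyte markers Tat higher (2.07) and Serpina1c lower (-1.52), and of 6 endothelial markers Lyve1 higher (1.23) and Clec4g and Kdr lower (-0.67 and -0.64). S100a8 of 10 neutrophil markers and Nkg7 of 9 T and NK cell markers were called higher (1.00 and 0.76). The part of these shifts in the result was not tested.

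Few of the genes were called between HFD+1B and chow mice. Tap1 was higher by 0.65 (SE 0.20, adjusted p = 0.0328), with log2 ratios of -0.13, 0.05, -0.67 and -0.53 in chow mice, and Dhx58 was higher by 0.47 (SE 0.14, adjusted p = 0.0250). For both the groups overlapped, and on the first slide the difference of Dhx58 was -0.07. Called higher were 2 of 38 members (5.26%), against 8.9% of all genes, and called lower none, against 7.4% (4 were higher and 2 were lower by unadjusted p). The groups did not overlap for 2 members (5.26%, against 15.6% of all genes). These were Ifit1 and Ifit3, at -0.42 and -0.37, which were not called. No member was called without chow replicate 3, chow replicate 4 or HFD+1B replicate 4, and only Tap1 without HFD+1B replicate 5.

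The ethanol differences on the 2 diets can be set side by side, since they share no array. Members below 0 in both numbered 19 of 38, 50% against 25.6% of all genes, and 1 (Igtp) was above 0 in both, against 28.9% of all genes, but with median centring in place of loess 11 were below and 9 above 0 in both. Ifit3 and Isg15 were called lower in both. A test of whether the ethanol difference depended on the diet (the interaction) called 0 of 38 members, against 4.39% of all genes in either direction, while 4 members had an unadjusted p of 0.05 or less. These were Ifi35 (-0.50, SE 0.15, adjusted p = 0.0592), Ifit1 (-0.69, SE 0.25, adjusted p = 0.131), Ifi44 (-0.35, adjusted p = 0.223) and Parp9 (-0.32, adjusted p = 0.184). The larger fall of Ifit3 on the high-fat diet was thus not shown to differ from that on chow. Without HFD+1B replicate 5, Ifi35 alone was called. The 2 diet comparisons, which also share no array, had 19 of 38 members above 0 in both, 50% against 27.2% of all genes, and 2 (Mx1 and Oas1a) below 0 in both, against 29%. Under the 4 other scalings, 19 to 21 were above and 1 to 4 below 0 in both. Isg15 and Dhx58 were called higher in both.

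**Figure D3:**
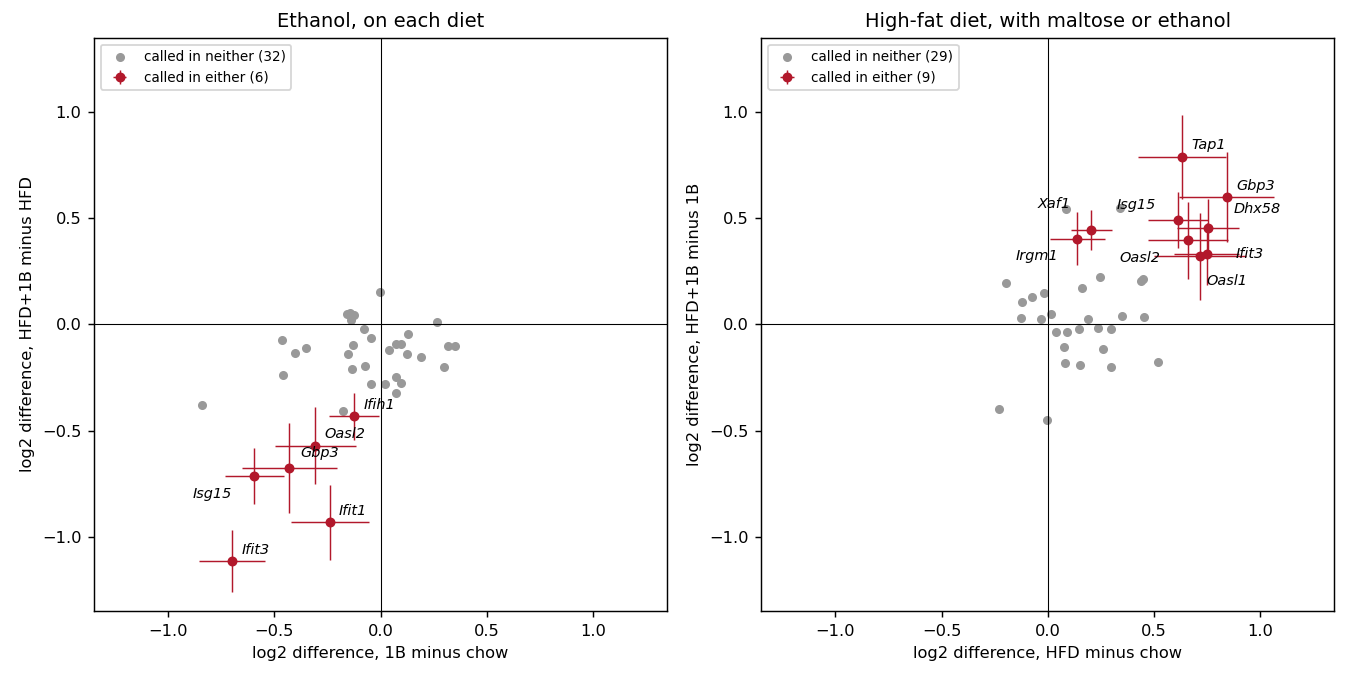
Log2 differences of the 38 tested members, with ethanol against maltose on chow (horizontal) and on the high-fat diet (vertical) at left, and the high-fat diet against chow under maltose (horizontal) and under ethanol (vertical) at right. Bars are SE and colors mark members called in either comparison, 6 at left and 9 at right. Ifit3 lies farthest to the lower side at left, at -0.70 and -1.12.

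The mean over the 38 members, each relative to its chow mean, gives the position of each mouse. It was -0.10 to 0.06 in chow mice, -0.20 to -0.07 in 1B mice, 0.13 to 0.36 in HFD mice, and -0.04 to 0.09 in HFD+1B mice. With this main scaling the HFD mice did not overlap any other group. The group means were -0.11 (SD 0.06), 0.25 (SD 0.11) and 0.02 (SD 0.06) in 1B, HFD and HFD+1B mice. With median centring the HFD mice lay at 0.05 to 0.17. They then overlapped the HFD+1B mice, at -0.08 to 0.28, and the chow mice, at -0.09 to 0.08. With the Cy5 signal alone the HFD mice lay at 0.05 to 0.38 and overlapped the HFD+1B mice, at -0.11 to 0.12. With the deposited log2 ratio table the HFD mice lay at 0.26 to 0.55 and the HFD+1B mice at -0.17 to 0.06. No test was made on this mean.

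**Figure D4:**
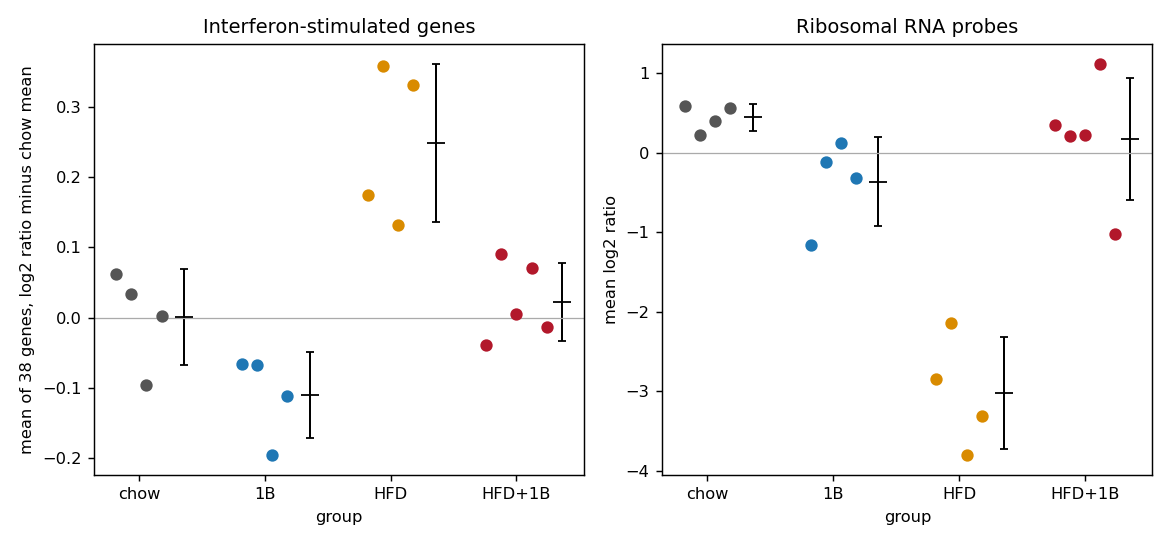
Left, the mean of the 38 tested members relative to chow (log2) in each mouse of the 4 groups, and right, the mean log2 ratio of 3 ribosomal RNA probes in the same mice, with the mean and SD of each group. HFD mice are highest at left, 0.13 to 0.36, and lowest at right, -3.81 to -2.15.

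The transcription factors that drive the response (Stat2, Irf9, Irf7, Irf1) were not called at their brightest probe in any comparison. Irf1, the brightest of them, is induced by interferon-γ and had log2 ratios of 0.37, -0.19, -0.26 and -0.15 in chow mice, 0.27, 0.22, 0.02 and -0.24 in 1B mice, 0.24, 0.11, 0.23 and -0.22 in HFD mice, and 0.03, 0.08, -0.12, -0.07 and 0.31 in HFD+1B mice. All 4 groups overlapped. In HFD+1B vs HFD mice the 4 factors had differences of -0.24 to -0.04, and in HFD vs chow mice of -0.12 to 0.24.

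The remaining tested members that were called in no comparison number 27 with those 4 factors. The sensors Ddx58, Zbp1 and Eif2ak2 had differences of -0.41 to 0.04 in HFD+1B vs HFD mice and -0.47 to -0.12 in 1B vs chow mice. Ifit2, the other measured Ifit gene, had a difference of -0.02 in HFD+1B vs HFD mice. Oas1a, Oas2 and Oas3, which activate RNase L through oligoadenylates, lay between -0.12 and -0.09 in that comparison. Oas1a had no value in HFD+1B replicate 4. The effectors Mx1, Mx2, Rsad2, Cmpk2, Isg20, Bst2 and Ifi44 lay between -0.20 and 0.15 there, and Usp18, Trim21 and Trim25, the protease that removes Isg15 and a pair of ubiquitin ligases, between -0.14 and 0.05. The GTPases Gbp2, Igtp and Iigp1 lay between -0.38 and 0.01, and Parp9, Parp14 and Ifi35 between -0.28 and -0.20. In HFD vs chow mice the 27 members ranged from -0.23 to 0.45. Igtp had no value in chow replicate 1. Oas2 and Cmpk2 were well above background on 9 arrays each and Trim21 on 13, and the offset of 50 used in the background correction pulls their ratios, and that of Gbp3 (16 arrays), toward a common value. The offset also acts on other dim probes that were above background on all 17 arrays. Their mean Cy5 signal was 35.6 for Eif2ak2, 43 for Gbp2, 67.9 for Oasl2, 71.1 for Oas3, 79.0 for Ifit2 and 83.8 for Ifit1.

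Several genes had more than 1 probe, and their calls could differ. A dimmer probe of Irf9 was called lower in 1B vs chow mice (-0.44, adjusted p = 0.0363), in HFD+1B vs HFD mice (-0.60, adjusted p = 0.0012) and in HFD+1B vs chow mice (-0.44, adjusted p = 0.00875), and the brightest in none of these (-0.13 and -0.21 in the first 2). A second probe of Rsad2, the antiviral radical-SAM enzyme viperin, was called higher in HFD vs chow mice (0.83, adjusted p = 0.0027) and lower in HFD+1B vs HFD mice (-0.63, adjusted p = 0.0062), and its brightest probe was not. Its log2 ratios were 0.20 to 0.92 in HFD mice, -0.61 to -0.10 in chow mice, -0.86 to -0.70 in 1B mice, and -0.29 to 0.08 in HFD+1B mice, and the HFD mice overlapped none of the other groups. In HFD+1B vs 1B mice that probe (0.71) and a further one (0.37) were called higher. A second probe of Irf1 was called lower in HFD+1B vs HFD mice (-0.50, adjusted p = 0.0322), as were those of Ddx58 (-0.35) and Cmpk2 (-0.29). Other probes called where the brightest was not were those of Ddx58 in HFD vs chow mice (0.41) and Isg20 in HFD+1B vs chow mice (0.37). The reverse was seen for Ifih1 in HFD+1B vs HFD mice and Irgm1 in HFD+1B vs 1B mice, called only at the brightest probe. In HFD vs chow mice the brightest Ifih1 probe lay at 0.35 and the dimmer at -0.32, and neither was called. For Parp14 the dimmer probes lay at 0.02 and 0.03 in HFD+1B vs HFD mice, and the brightest at -0.28. Over all 56 tested probes, 3 were called lower in 1B vs chow mice (1.78% of all probes were), 8 higher in HFD vs chow mice (3.88%), 11 lower in HFD+1B vs HFD mice (8.02%), and 7 higher in HFD+1B vs 1B mice (5.3%). In HFD+1B vs chow mice 3 were called higher (7.8%) and 1 lower (6.98%).

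Other genes of the pathway were counted for comparison. Among 51 other interferon-stimulated genes tested, 2 were called higher and 2 lower in 1B vs chow mice (2.09% and 2.05% of all genes were), with Apol9b at -1.04 and Rtp4 at -0.78. In HFD vs chow mice 10 were called higher and 1 lower (4.5% and 6.48% of all genes), with Ifi27l2a at 2.32, the chemokine Cxcl9 at 1.09 and the immunoproteasome subunit Psmb9 at 0.96. In HFD+1B vs HFD mice 3 were called higher and 12 lower (11% and 8.4% of all genes), with the GTPase Ifi47 at -1.11, Parp10 at 0.78 and the chemokine Cxcl10 at -0.77. Their median was -0.18 in that comparison and 0.24 in HFD vs chow mice. In HFD+1B vs 1B mice 7 were called higher and 2 lower (6.28% and 5.15% of all genes), and in HFD+1B vs chow mice 7 higher and 5 lower (8.9% and 7.4%). The interaction called none higher and 3 lower, against 2.67% and 1.72% of all genes (Ifi47 at -1.21, Cxcl11 at -0.91 and Lgals9 at -0.45).

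Upstream of these genes, few interferons were measured. Of 21 interferon genes listed, 13 had a probe and 11 were tested. Of these 11, only Ifnab was called lower in HFD vs chow mice (-0.47), where 6.48% of all genes were. Only Ifna9 was called higher in HFD+1B vs HFD mice (0.46), where 11% of all genes were. Of 17 tested genes for interferon receptors and JAK-STAT signaling, 4 were called higher and 1 lower in HFD+1B vs HFD mice (11% and 8.4% of all genes), with the feedback inhibitor Socs3 at 1.01, the phosphatase Ptpn6 at 0.61 and the receptor chain Ifngr1 at 0.55. In HFD+1B vs chow mice 5 were called higher and 3 lower (8.9% and 7.4%), in HFD+1B vs 1B mice 3 and 3 (6.28% and 5.15%), in HFD vs chow mice 0 and 1 (4.5% and 6.48%), and none in 1B vs chow mice or in the interaction. Of 13 adaptors of nucleic acid sensing, 4 were called higher and none lower in HFD+1B vs HFD mice, against 11% and 8.4% of all genes, with Tlr9 at 0.56, the DNA-sensing adaptor Tmem173 at 0.43 and the kinase Tbk1 at 0.41. The adaptors called higher numbered 3 in HFD+1B vs chow, 2 in HFD vs chow and 1 in 1B vs chow mice (8.9%, 4.5% and 2.09% of all genes), and 1 was called lower in the interaction (1.72%). None was called in HFD+1B vs 1B mice.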

How the data were processed

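RNA of 17 livers was hybridized in Cy5 against a common Cy3 reference that the labels call both assorted mouse RNA and liver, with no dye swap. The authors deposited scanner files of raw intensity (Agilent Feature Extraction 11.5.1.1, per the file headers) and a log2 ratio table of their processed signals. From the intensity values, background was corrected with normexp (offset 50), scanner outlier spots were left out, log2 ratios were loess-normalized within arrays and spots of a probe averaged. Probes well above background on at least 4 arrays were tested with limma 3.58.1 in R 4.3.3, in 1 fit of 4 group means, and the test was checked on simulated data. With 1 array per mouse, p-values measure the spread between these mice, and the number of arrays limits the precision. Values in every mouse are given for called members, at most 6 per comparison, and for the brightest of a role with none called. Members and lists were chosen with earlier results of these data known. RefSeq supplied promoters; the build of the probe annotation was not used. Alternatives (scaling, filters, slide, replicate number, probe choice, call rule, each mouse left out) are given in the closing section.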

Additional observations from a re-analysis of the deposited data

Results flagged for a closer look

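In 9 of 155 checks, 1 mouse stood apart from the others of its group. Each check took 1 member, or the mean of the members, in 1 group. The measure was the gap from that mouse to the nearest, divided by the range of the group. About 1 in 20 would be found by chance, which is 7.75 of 155. Ddx58 was highest in chow replicate 1 (0.16, others -0.20 to -0.17, share 0.897). Parp14 was lowest in chow replicate 3 (-0.14, others 0.19 to 0.22, share 0.920) and highest in 1B replicate 1 (0.87, others -0.07 to 0.08, share 0.844). Iigp1 was lowest in chow replicate 3 (-0.10, others 0.29 to 0.36, share 0.841).

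Among HFD mice, Ifit2 was lowest in replicate 3 (-0.42, others -0.07 to -0.02, share 0.868), Stat2 was highest in replicate 3 (0.58, others -0.01 to 0.06, share 0.881) and Irgm1 was lowest in replicate 1 (-0.27, others 0.11 to 0.17, share 0.861). Among HFD+1B mice, Oasl2 was lowest in replicate 1 (-0.80, others -0.15 to -0.04, share 0.850) and Ifit2 was highest in replicate 2 (0.28, others -0.39 to -0.20, share 0.713).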

How the results depend on the processing

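The members called numbered 2 in 1B vs chow, 6 in HFD vs chow, 2 in HFD+1B vs chow, 6 in HFD+1B vs HFD, 5 in HFD+1B vs 1B and 0 in the interaction. Leaving out 1 mouse at a time gave 1 to 3, 3 to 7, 0 to 3, 4 to 7, 1 to 8 and 0 to 1 in the same order. With the Cy5 signal alone 0, 0, 2 and 0 members were called in 1B vs chow, HFD+1B vs chow, HFD+1B vs HFD and HFD+1B vs 1B. The Tukey test of the methods gave 6 in 1B vs chow at its own threshold, and after Benjamini-Hochberg adjustment 0 in 1B vs chow, HFD vs chow and HFD+1B vs chow, 3 in HFD+1B vs HFD and 1 in HFD+1B vs 1B. At its own threshold it called none lower in HFD vs chow, HFD+1B vs chow and HFD+1B vs 1B, and none higher in HFD+1B vs HFD. A fold of at least 2 with an unadjusted p left 1 in HFD+1B vs HFD and 0 elsewhere. The deposited log2 ratio table gave 0 in HFD+1B vs chow, median centring 3 in HFD+1B vs HFD, the slide as a block 4 in 1B vs chow, and the mean of all probes of a gene 10 in HFD vs chow and 1 in the interaction. The share of all genes called under each setting is not given here or below. These counts therefore do not show whether the members differ from other genes. The cause of the shifts between settings was not tested. Fits that left 1 mouse out also held fewer mice, and the fold setting required a 2-fold difference.

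With the replicate number as a block (replicate block), 4 members were called in 1B vs chow, 9 in HFD vs chow, 2 in HFD+1B vs chow, 7 in HFD+1B vs HFD, 6 in HFD+1B vs 1B and 1 (Ifi35) in the interaction. The labels give no pairing of the numbers. Of 24 pairs of same-numbered mice, 14 of which share a slide, the correlation of deviations was -0.13 to 0.47 and above 0.1 in 16, including all 4 pairs of HFD and HFD+1B mice. Each other pair of groups had at least 1 correlation below that. Of the differences of named genes under all alternatives, 464 kept direction and call, 122 lost the call, and 0 changed direction. Ifit3 and Ifit1 in HFD+1B vs HFD mice were called under all 28 alternatives other than the fold threshold, which left out Ifit1. Probes near background limit what can be said of Oas2, Cmpk2 and Trim21.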
